A study of Mus musculus with 6 samples.

Results

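Accessible chromatin at genes of the Wnt signalling pathway was examined in mouse nephron progenitor cells, the mesenchymal cells of the outer kidney that give rise to the epithelium of the nephron. The set held 51 genes, of which 37 promote the signal (Wnt ligands, receptors, R-spondins, transducers and TCF/LEF factors) and 14 restrain it. A region belonged to a gene when its midpoint lay in the gene body or within 10 kb of it, with gene bodies from RefSeq (assembly GRCm38.p6, the same build as the mm10 named in the submitters' processing notes). This gave 101 of the 43523 distinct regions, and 41 of the 51 genes had at least 1. Activator genes held 77 regions (at 29 genes) and inhibitor genes 24 (at 12 genes), and no region lay at more than 1 gene of the set.

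The cells came from CD1 mice, an outbred stock, at the embryonic stage E14.5 (3 libraries) and on the day of birth (P0, 3 libraries). Up to 24 kidneys of a litter were pooled for each library, cells bound by an Itga8 antibody on magnetic beads were kept, and 50000 of them entered the transposition. No allele or agent was named for either stage, and the groups share strain, selection and assay. Open chromatin was mapped by ATAC-seq: the transposase Tn5 cuts DNA that is not covered by nucleosomes and tags it with adapters, and the counts of a region grow with its accessibility. As a region's count is a sum over many cells, fewer cells with an open site and a less open site in each cell cannot be told apart.

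Wnt ligands bind Frizzled receptors together with the co-receptors Lrp5 and Lrp6, and the signal passes through Dishevelled proteins (Dvl) to a complex of Apc, Axin and Gsk3b that otherwise marks beta-catenin (Ctnnb1) for destruction. Beta-catenin that escapes enters the nucleus and activates genes together with TCF/LEF factors. In the developing kidney, Wnt9b from the ureteric bud acts on the progenitors, and Wnt4 is known for its role in their conversion to epithelium. R-spondins strengthen the signal through Lgr receptors by keeping the ubiquitin ligases Znrf3 and Rnf43 away from the Frizzleds.

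The sequence before the start of a gene is shown first for Axin2 and Ror1, whose start lay in an accessible region at both stages, and for Wnt4, for which no region was listed. Each line gives the 250 bases before a RefSeq start (GRCm38.p6), 5′ to 3′ on the strand of the gene. Capitals mark CpG dinucleotides, which are dense in many promoters that are open in most cell types.

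Axin2, chr11:108920099-108920348, + strand: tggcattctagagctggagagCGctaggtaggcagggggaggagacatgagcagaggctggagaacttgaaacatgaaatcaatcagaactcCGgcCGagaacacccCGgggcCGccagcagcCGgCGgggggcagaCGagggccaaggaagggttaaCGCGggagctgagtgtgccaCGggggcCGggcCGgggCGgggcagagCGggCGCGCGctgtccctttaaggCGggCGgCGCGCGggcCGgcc
Ror1, chr4:100095541-100095790, + strand: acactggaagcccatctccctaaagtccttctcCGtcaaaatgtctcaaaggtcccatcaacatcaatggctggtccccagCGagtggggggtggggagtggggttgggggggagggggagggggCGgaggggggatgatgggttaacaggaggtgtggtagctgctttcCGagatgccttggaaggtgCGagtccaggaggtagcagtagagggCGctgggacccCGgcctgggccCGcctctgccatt
Wnt4, chr4:137277385-137277634, + strand: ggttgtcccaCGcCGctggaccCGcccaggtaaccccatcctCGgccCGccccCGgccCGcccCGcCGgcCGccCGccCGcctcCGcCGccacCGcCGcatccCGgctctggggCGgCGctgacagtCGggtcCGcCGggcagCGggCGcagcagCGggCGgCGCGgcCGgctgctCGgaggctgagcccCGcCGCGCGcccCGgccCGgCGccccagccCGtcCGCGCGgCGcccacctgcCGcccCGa

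The Axin2 stretch held 24 CpG and the Ror1 stretch 8, while the Wnt4 stretch held 44 with a GC content of 85.2%. RefSeq promoter windows were given for 34 of the 51 genes, 44 windows in all, and 25 of the 44 windows overlapped a region (56.8%, against 41.7% of all 32851 windows). The median CpG count was 16 both in the 25 windows with a region and in the 19 without. Over all windows it was 16 with a region and 3 without. The windows of Wnt4, Wnt2b (36 CpG), Fzd10 (37) and Tcf7 (37 at the denser of its 2 starts) were rich in CpG and had no region.

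TCF/LEF factors bind DNA at a short core, searched here as CTTTGAT and CTTTGAA on both strands. CTTTGAT stood in 2 of the 44 stretches of 250 bases (4.55%, against 3.21% of all) and CTTTGAA in 1 (2.27%, against 4.46%). The match at Dkk1 and the match at the upstream start of Wnt11 are shown with the motif in capitals, beside the downstream start of Wnt11. Of these 3, the upstream start of Wnt11 overlapped no region, while the other 2 did. The second match to CTTTGAT lay before a start of Wnt5b without a region.

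Dkk1, chr19:30549497-30549746, - strand: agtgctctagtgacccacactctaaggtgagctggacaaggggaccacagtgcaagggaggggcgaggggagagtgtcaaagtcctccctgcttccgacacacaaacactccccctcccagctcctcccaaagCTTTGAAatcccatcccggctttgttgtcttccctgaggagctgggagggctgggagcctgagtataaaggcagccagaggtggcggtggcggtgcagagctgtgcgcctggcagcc
Wnt11 upstream start, chr7:98834862-98835111, + strand: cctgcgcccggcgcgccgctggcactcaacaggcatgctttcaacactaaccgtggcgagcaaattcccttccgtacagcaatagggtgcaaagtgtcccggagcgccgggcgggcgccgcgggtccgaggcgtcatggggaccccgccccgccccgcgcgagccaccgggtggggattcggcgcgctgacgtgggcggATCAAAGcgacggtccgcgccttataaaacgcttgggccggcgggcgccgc
Wnt11 downstream start, chr7:98838595-98838844, + strand: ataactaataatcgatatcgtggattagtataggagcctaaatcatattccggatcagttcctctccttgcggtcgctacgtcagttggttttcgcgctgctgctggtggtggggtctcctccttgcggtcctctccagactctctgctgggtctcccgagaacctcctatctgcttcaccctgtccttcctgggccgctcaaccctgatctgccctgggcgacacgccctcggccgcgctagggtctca

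The 6 libraries had 6492996 to 12292629 counts in regions. A member region had from 10 to 2692 counts in a library, with a median of 160, and the set took 0.231% to 0.308% of a library's counts. Of 10 listed progenitor markers, 9 had a region and 6 (Eya1, Gdnf, Osr1, Sall1, Six2 and Wt1) had an accessible promoter, while Meox1 had none. Regions were also present at listed markers of other kidney cells, at 8 of 9 stromal, 6 of 8 ureteric, 6 of 8 endothelial and 5 of 7 immune genes, though no immune gene had an accessible promoter of its own. Stromal markers summed to 296 to 340 CPM (counts scaled by the TMM-adjusted library size) at E14.5 and 299 to 370 at P0, and immune markers 111 to 125 and 102 to 119. Endothelial markers had 191 to 211 and 189 to 218 CPM, progenitor markers 425 to 430 and 364 to 443, and markers of the committed nephron (6 of 8 genes with a region) 520 to 555 and 467 to 603. Single marker regions passed the threshold: 2 of 22 progenitor regions were lower at P0, and 1 of 19 committed nephron and 1 of 11 endothelial regions were higher, and their part in the results was not tested. Ureteric markers had 207 to 230 CPM at E14.5 and 197 to 207 at P0, and their part in the results at genes such as Wnt11, which the ureteric tip expresses, was not tested.

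The 2 stages were told apart by the test at 1 of the 101 Wnt regions (0.990%), which lay inside the receptor gene Ror1 and was more accessible at P0. The threshold was a Benjamini-Hochberg adjusted p under 0.05 over all regions in edgeR's quasi-likelihood test. Of all distinct regions 4.73% passed it, 1.79% higher and 2.94% lower at P0. Of the 101 regions, 51 were promoter regions, a class in which 0.851% of all regions passed, against 6.59% of all other regions. At an unadjusted p under 0.05 there were 16 member regions (15.8%, against 18.7% of all regions). Of the 16, 14 were higher at P0, against 4288 of the 8140 such regions in the table.

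The ranges of the E14.5 and P0 libraries did not overlap in 24 of the 101 regions (23.8%), 19 of them higher and 5 lower at P0. Over all regions 24.2% were separated in this way, 11.8% higher and 12.4% lower, so the share in the set was close to the background. The median log2 fold change of P0 over E14.5 was 0.03 over the set, against 0.01 over all regions, and single regions ran from -0.86 to 1.28. With library totals in place of TMM the median over all regions was 0.07. The median was -0.04 at the 51 promoter regions and 0.22 at the 50 other regions, against -0.10 and 0.10 in the whole table. Of 200 regions given a 2-fold change in simulated counts for 43523 regions, the test recovered 32%. With so few changed regions the adjusted threshold was stricter than in the data, where 2059 regions passed. The 32% is therefore not the share of 2-fold changes found in the data.

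**Figure D1:**
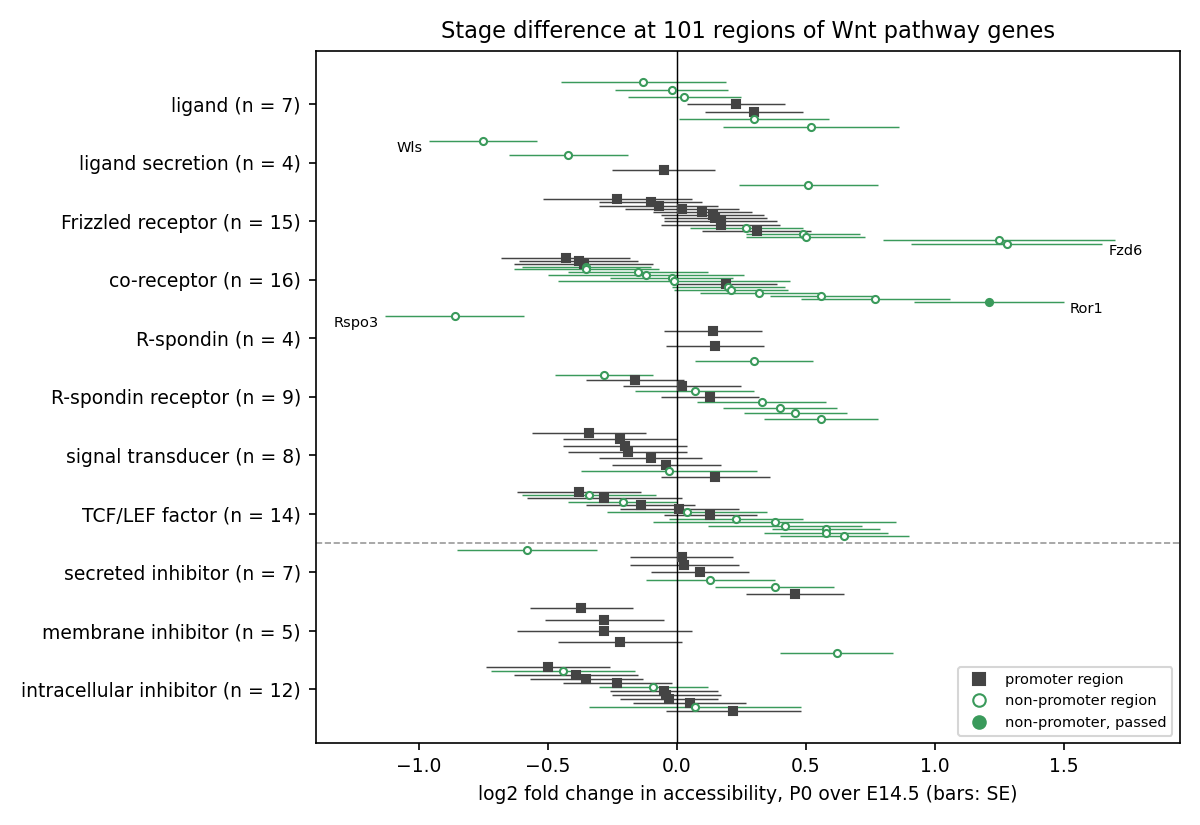
Log2 fold change of accessibility (P0 over E14.5, horizontal axis, bars SE) at the 101 regions, grouped by the role of the gene, with activators above the dashed line and inhibitors below. Squares are promoter regions and circles other regions. The filled circle is the Ror1 region, which passed the threshold, and named regions had an adjusted p under 0.1.

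Among the 10 Wnt genes, Wnt4, Wnt5a, Wnt7b, Wnt9b and Wnt10b had no region within 10 kb, and the other 5 had 7 regions, of which none passed the threshold. The nearest region lay 12.6 kb from Wnt5a, a ligand of the beta-catenin-independent branch, 30.0 kb from Wnt9b and 60.3 kb from Wnt4. These 3 regions had log2 fold changes of 0.25 (SE 0.22), -0.30 (SE 0.20) and 0.36 (SE 0.25), none past the threshold.

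The promoter of Wnt11, a ligand of the ureteric tips, had an accessible region on chromosome 7 from 98837737 to 98839868, over the downstream start printed above. It had 19.0, 17.9 and 17.2 CPM in E14.5 replicates 1, 2 and 3 and 21.4, 21.6 and 23.3 CPM in P0 replicates 1, 2 and 3. All P0 libraries were above all E14.5 libraries, but the difference was small and did not pass the threshold in edgeR (log2 fold change 0.30, SE 0.19, adjusted p = 0.424). The Wnt6 promoter was also separated, with 17.3, 20.1 and 18.3 CPM at E14.5 and 23.3, 21.2 and 21.2 at P0 (log2 fold change 0.23, SE 0.19, adjusted p = 0.556 in edgeR). A region in an exon of Wnt6, with 2.61 to 4.67 CPM at E14.5 and 4.79 to 5.60 at P0, also did not overlap between the stages (log2 fold change 0.52, SE 0.34). At Wnt3, a canonical ligand, the region had 19.2 ± 2.69 CPM at E14.5 against 19.8 ± 5.02 at P0 (SD, n = 3 each). The region 6.35 kb from Wnt2b, a ligand known from the kidney stroma, and the 2 intragenic regions of Wnt5b had log2 fold changes from -0.13 to 0.30, with overlapping libraries.

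Wls carries Wnt proteins to the cell surface and is needed for their secretion. A region in its gene body outside exons, on chromosome 3 from 159884795 to 159886311 and 45.9 kb from the start of the gene, had 42.7, 49.0 and 58.0 CPM at E14.5 and 30.0, 24.2 and 34.7 CPM at P0. Every P0 library lay below every E14.5 library. The log2 fold change was -0.75 (SE 0.21), and the adjusted p of 0.0523 in edgeR lay just outside the threshold. The Wls promoter had 76.9 ± 4.64 CPM at E14.5 against 74.3 ± 9.78 at P0 (SD, n = 3 each). A neighbouring intragenic region, from 159883295 to 159884031, pointed the other way (log2 fold change 0.51, SE 0.27, adjusted p = 0.330 in edgeR), and E14.5 replicate 2 overlapped the P0 libraries there. Without E14.5 replicate 2 this region passed the threshold, higher at P0.

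The Frizzled genes encode the main Wnt receptors, and 8 of the 9 had a region, the exception being Fzd10. None of their 15 regions passed the threshold, and 12 of the 15 had a positive log2 fold change, against 51.1% of all regions. Among the 15 are the overlapping pair at Fzd7 and regions listed for the neighbours Fbxo16 (near Fzd3), Tmem135 (Fzd4) and Ccnyl1 (Fzd5). The largest fitted difference, close to that at Fzd5 below, lay within Fzd6 outside exons, on chromosome 15 from 39023083 to 39023999. This weakly accessible region had 3.08, 4.55 and 1.87 CPM at E14.5 and 5.83, 10.3 and 7.58 CPM at P0. The stages did not overlap (log2 fold change 1.28, SE 0.37), and the adjusted p of 0.0600 in edgeR also lay just outside the threshold. A region 3.99 kb beyond Fzd6 had a log2 fold change of 0.50 (SE 0.23), and the Fzd6 promoter 0.31 (SE 0.21), with adjusted p-values of 0.254 and 0.459 in edgeR. The promoter's value was 0.09 without P0 replicate 3.

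At Fzd5, a region 5.91 kb from the gene, in an exon of Ccnyl1, had 7.47, 4.29 and 1.17 CPM at E14.5 and 7.70, 13.5 and 9.79 at P0. The E14.5 libraries were widely spread and the highest of them nearly reached the lowest P0 library (log2 fold change 1.25, SE 0.45, adjusted p = 0.134 in edgeR). The promoters of Fzd1, Fzd2, Fzd3, Fzd4, Fzd5, Fzd7 and Fzd8 had log2 fold changes between -0.23 and 0.17, each smaller than its SE. The Fzd3 promoter had 19.2, 19.2 and 19.7 CPM at E14.5 and 18.0, 7.87 and 23.0 at P0, where P0 replicate 2 was far below the rest. Fzd7 was listed with 2 regions that shared 3270 bp, so their values are not independent.

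Ror1 and Ror2 encode receptor tyrosine kinases that bind Wnt5a and signal without beta-catenin. The region past the threshold lay within Ror1 outside exons, on chromosome 4 from 100306918 to 100308119, 212 kb from the start of a gene of 349 kb. It had 5.93, 5.25 and 5.02 CPM in E14.5 replicates 1, 2 and 3, and 15.0, 14.4 and 8.29 CPM in P0 replicates 1, 2 and 3. The E14.5 libraries lay close together, and P0 replicate 3 lay well below the other P0 libraries but above all of E14.5. Accessibility was 2.31-fold higher at P0, with means of 5.40 ± 0.473 and 12.6 ± 3.71 CPM (SD, n = 3 libraries a stage). The log2 fold change was 1.21 (SE 0.29), with an adjusted p of 0.0254 in edgeR. The call was lost with limma-voom (adjusted p = 0.0534). It was also lost without E14.5 replicate 1 (0.0644), E14.5 replicate 3 (0.140), P0 replicate 1 (0.179) or P0 replicate 2 (0.0688), in edgeR, while the log2 fold change stayed between 1.03 and 1.43 over the alternatives.

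The other 6 regions of Ror1 differed less. A region 160 kb from the start had 6.88, 8.85 and 4.32 CPM at E14.5 and 9.16, 13.6 and 11.8 at P0, and one 92.7 kb from the start had 10.3 to 11.0 CPM at E14.5 and 11.2 to 16.3 at P0. In both, all P0 libraries were above all E14.5 libraries, without passing the threshold (log2 fold changes 0.77 and 0.32, SE 0.29 and 0.23). The next region beyond the called region, 226 kb from the start, had a log2 fold change of -0.35 (SE 0.25). The Ror1 promoter, whose sequence is printed above, had 23.0 ± 3.34 CPM at E14.5 against 26.2 ± 3.03 at P0 (SD, n = 3 each). All 4 regions of Ror2 had negative log2 fold changes, from -0.38 (the promoter, SE 0.23) to -0.01 (3 of the 4 with library totals), and none passed the threshold. Whether Ror1 and Ror2 differ from each other was not tested.

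**Figure D2:**
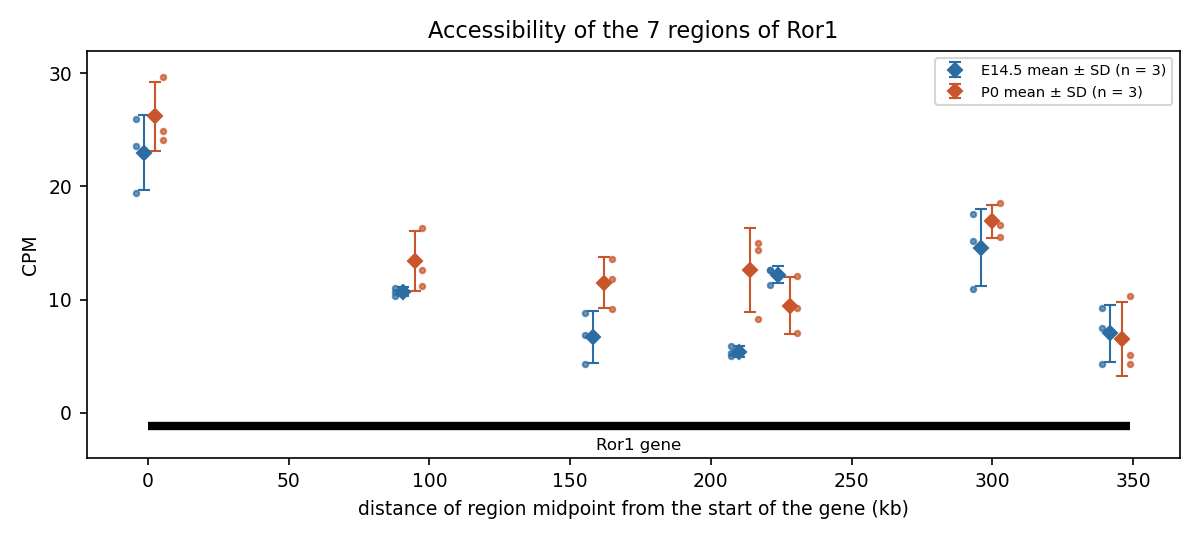
Accessibility in CPM (vertical axis) of the 7 regions of Ror1 against the distance of each region's midpoint from the start of the gene in kb. Diamonds are means with SD (n = 3) and small points the libraries, in blue for E14.5 and orange for P0. The stages separate most at 212 kb, where E14.5 had a mean of 5.40 CPM and P0 one of 12.6.

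Lrp5 and Lrp6 are the co-receptors of the beta-catenin branch. An intragenic region of Lrp6 outside exons, on chromosome 6 from 134526315 to 134528610, had 16.1, 18.4 and 14.8 CPM at E14.5 and 22.7, 21.5 and 28.5 at P0. The libraries did not overlap, but the region did not pass (log2 fold change 0.56, SE 0.20, adjusted p = 0.133 in edgeR). The Lrp6 promoter had 25.4, 23.7 and 31.6 CPM at E14.5 and 23.0, 10.9 and 28.3 at P0, with P0 replicate 2 the lowest. Its log2 fold change was -0.36 (SE 0.27), but -0.07 without that library and -0.66 without P0 replicate 3. Lrp5 had an intragenic region with 12.1 ± 2.12 and 13.9 ± 0.843 CPM (SD, n = 3 each), and the region assigned to its other side was the promoter of Ppp6r3.

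R-spondins are secreted proteins that amplify Wnt signals. Within Rspo3, a region outside exons on chromosome 10 from 29525749 to 29527003 had 8.30, 13.6 and 14.7 CPM at E14.5 and 6.98, 5.90 and 7.26 CPM at P0. All P0 libraries lay below all E14.5 libraries, and E14.5 replicate 1 was close to them. The log2 fold change of -0.86 (SE 0.27) was the lowest of the set, with an adjusted p of 0.0911 in edgeR. The Rspo3 promoter, listed as 2 regions sharing 3490 bp, had 61.7 to 70.6 CPM at E14.5 and 63.7 to 80.4 at P0 in the longer of them (log2 fold change 0.14, SE 0.19). Rspo1 had a single intragenic region, with 9.73, 11.8 and 9.69 CPM at E14.5 and 14.3, 11.2 and 13.1 at P0, and no region at its start.

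Lgr4 and Lgr5 are R-spondin receptors, and Lgr5 is itself a known Wnt target and a stem cell marker in several epithelia. All 5 regions of Lgr5 had positive log2 fold changes, from 0.07 to 0.46, and none passed the threshold. The highest value belonged to a region outside exons on chromosome 10, from 115554845 to 115557451, with 12.5, 14.4 and 14.0 CPM at E14.5 and 18.6, 18.6 and 19.0 at P0. These libraries were tightly grouped within each stage and did not overlap, yet the adjusted p was 0.213 in edgeR (log2 fold change 0.46, SE 0.20). An intragenic region of Lgr4 from 109941820 to 109943366 on chromosome 2 was similar, with 11.5, 13.1 and 9.58 CPM against 18.7, 15.6 and 16.1 (log2 fold change 0.56, SE 0.22, adjusted p = 0.172 in edgeR). The promoters of Lgr4 and Lgr5 had log2 fold changes of 0.02 (SE 0.23) and 0.13 (SE 0.19), and Lgr6 had no region.

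The Dishevelled genes and Ctnnb1 relay the signal inside the cell. Their 8 regions had log2 fold changes from -0.34 to 0.15, with 7 of the 8 below 0 (5 with library totals), and none passed the threshold or separated the stages. Promoters made up 7 of the 8 regions, and 9300 of all 14097 promoter regions were below 0. The promoter of Ctnnb1 had 33.0, 19.7 and 27.6 CPM at E14.5 and 20.5, 17.6 and 24.6 at P0, so that the libraries of the stages overlapped (log2 fold change -0.34, SE 0.22, adjusted p = 0.445 in edgeR, and -0.17 without E14.5 replicate 1 or -0.54 without E14.5 replicate 2). Dvl1 and Dvl3 had accessible promoters with log2 fold changes of -0.10 (SE 0.20) and 0.15 (SE 0.21). Both regions near Dvl2 were promoters of Phf23, its neighbour. The promoters of Mxra8 near Dvl1 and of Ap2m1 near Dvl3 were also counted, and the exon region within Dvl1 was listed for Tas1r3.

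Among the TCF/LEF factors, which bring beta-catenin to DNA, Tcf7 had no region, while Lef1, Tcf7l1 and Tcf7l2 had 14. Of the 14, 9 had a positive log2 fold change (against 51.1% of all regions) and 5 a negative one. None passed the threshold. The Lef1 promoter, the only region of that gene, had 24.8, 28.5 and 27.0 CPM at E14.5 and 31.0, 26.8 and 30.2 at P0 (log2 fold change 0.13, SE 0.18). Within Tcf7l1, which acts mainly as a repressor of Wnt targets, a region outside exons on chromosome 6 from 72713522 to 72715950 had 15.8, 18.7 and 19.4 CPM at E14.5 and 29.4, 19.8 and 31.3 at P0. P0 replicate 2 was barely above E14.5 there (log2 fold change 0.58, SE 0.21, adjusted p = 0.141 in edgeR).

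A second region within Tcf7l1, from 72747894 to 72749511, lay in an exon by the table's class and was listed there for another gene identifier. It had 14.0, 15.5 and 17 CPM at E14.5 and 32.3, 14.7 and 25.8 at P0. P0 replicates 1 and 3 were above all E14.5 libraries, while P0 replicate 2 lay within their range, and without it the region passed the threshold (log2 fold change 0.65 with all libraries, SE 0.25). The table lists a match to the motif of Six2, the defining progenitor factor, in this region. In Tcf7l2, a region outside exons on chromosome 19 from 55784412 to 55785728 had 6.64, 7.09 and 7.12 CPM at E14.5 and 10.9, 9.99 and 10.2 at P0. This was a clear separation with little spread, and still short of the threshold (log2 fold change 0.58, SE 0.24, adjusted p = 0.213 in edgeR). The promoters of Tcf7l1 and Tcf7l2 had log2 fold changes of 0.01 (SE 0.23) and -0.38 (SE 0.24). The Tcf7l2 value was -0.69 without P0 replicate 3 and -0.24 without P0 replicate 2. Other regions of both genes also had negative values, from -0.34 to -0.14.

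**Figure D3:**
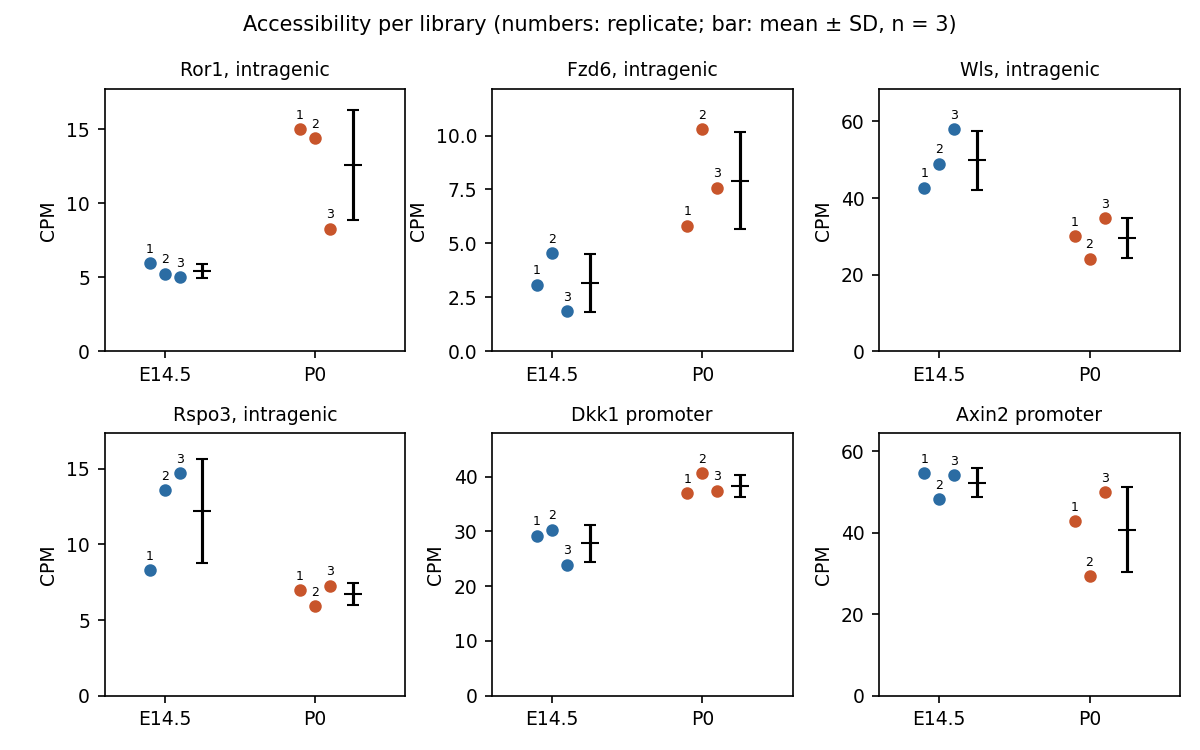
CPM per library (vertical axis, starting at 0) at E14.5 and P0 for 6 regions, with replicate numbers and the mean with SD (n = 3) beside the points. The Ror1, Fzd6 and Dkk1 regions were higher at P0 in every library and the Wls and Rspo3 regions lower, while the Axin2 promoter overlapped between the stages. Of the 6, only the Ror1 region passed the threshold.

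None of the 24 regions at inhibitor genes passed the threshold in edgeR, in either direction, where 4.73% of all regions and 0.851% of promoter regions passed. As 17 of the 24 were promoter regions, a count of 0 in a list of this size is close to the background. An unadjusted p under 0.05 was reached by 2 of them (8.33%, against 8.73% of all promoter regions, 23.5% of all other regions and 18.7% of all regions), and the DESeq2 Wald test and limma-voom also called 0. Among the secreted inhibitors, which catch Wnt proteins or block Lrp co-receptors, Dkk3 and Notum had no region. Notum fell just outside the window, with the nearest region, the promoter of Pycr1, at 10.2 kb (log2 fold change -0.20, SE 0.20), whereas the farthest region inside it lay 9.93 kb from Sfrp2 (0.13, SE 0.25).

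The promoter of Dkk1, an antagonist of Lrp5 and Lrp6 and itself a Wnt target, lay on chromosome 19 from 30547402 to 30550482, over the start printed above. It had 29.2, 30.3 and 23.9 CPM at E14.5 and 37.0, 40.6 and 37.4 CPM at P0. All P0 libraries were above all E14.5 libraries (log2 fold change 0.46, SE 0.19), but the adjusted p was 0.191 in edgeR. A second region 4.84 kb from Dkk1 had 11.4, 9.28 and 11.0 CPM against 15.8, 11.7 and 13.6 (log2 fold change 0.38, SE 0.23). Sfrp1, which encodes a decoy receptor, had 1 region 6.90 kb from the gene with 8.78, 9.63 and 7.01 CPM at E14.5 and 5.93, 5.90 and 5.21 at P0 (log2 fold change -0.58, SE 0.27, adjusted p = 0.270 in edgeR). Its promoter had 21.0 ± 1.43 and 22.3 ± 2.12 CPM (SD, n = 3 each) and the Sfrp2 promoter 28.1 ± 3.84 and 28.3 ± 4.59, with overlapping libraries in both.

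Znrf3 and Rnf43 remove Frizzled receptors from the membrane, and Kremen1 does so for Lrp6 together with Dkk proteins. The Znrf3 promoter, on chromosome 11 from 5443323 to 5445637, had 40.0, 28.0 and 29.1 CPM at E14.5 and 25.9, 23.2 and 25.7 at P0. Every P0 library was below every E14.5 library, and E14.5 replicate 1 was well above the other E14.5 libraries (log2 fold change -0.37, SE 0.20, adjusted p = 0.341 in edgeR, and -0.19 without it). Kremen1 had its largest difference in an exon, from 5201233 to 5204176 on the same chromosome, with 13.2, 20.9 and 15.9 CPM against 30.7, 20.9 and 25.2 (log2 fold change 0.62, SE 0.22, adjusted p = 0.139 in edgeR). Its promoter had a log2 fold change of -0.28 (SE 0.23), which ran from -0.51 (P0 replicate 3 left out) to -0.12 (E14.5 replicate 1 left out) over the fits that omit 1 library, with -0.14 when P0 replicate 2 was omitted. The Rnf43 promoter had the same value with an SE of 0.34, and 0.03 in the fit that omits P0 replicate 2 (3.18 CPM, against 6.52 to 9.23 in the other libraries).

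Inside the cell, Apc, Axin1, Axin2 and Gsk3b form the destruction complex and Nkd1 and Nkd2 act on Dishevelled. Of their 12 regions, 9 had a negative log2 fold change, from -0.50 to -0.03 (6 of the 12 with library totals). Promoters made up 9 of the 12, and 9300 of all 14097 promoter regions had a negative value. The -0.50 belonged to the promoter of Mrpl28 near Axin1, and the negative values include the promoter of Srp19 near Apc. Axin2, the most widely used readout of Wnt activity, had a promoter region on chromosome 11 from 108920105 to 108922383 with 54.6, 48.3 and 54.1 CPM at E14.5 and 42.9, 29.4 and 50 at P0. P0 replicate 3 lay above E14.5 replicate 2, and P0 replicate 2 was far below the rest (log2 fold change -0.35, SE 0.22, adjusted p = 0.415 in edgeR, and -0.17 without P0 replicate 2 or -0.54 without P0 replicate 3). The second region of Axin2, within the gene, had a log2 fold change of -0.44 (SE 0.28). The Axin1 promoter had 35.2, 26.1 and 29.1 CPM against 17.3, 18.8 and 32.4, where P0 replicate 3 lay at the E14.5 level (log2 fold change -0.39, SE 0.24). The value was -0.76 without that library, while leaving out P0 replicate 1, E14.5 replicate 1 or P0 replicate 2 gave -0.24, -0.26 and -0.27. The promoters of Gsk3b, Nkd1 and Nkd2 had log2 fold changes of 0.05, -0.23 and -0.03. Apc had 2 promoter regions of its own, with -0.05 (SE 0.21) and 0.22 (SE 0.26).

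Among genes known both to answer to Wnt signals and to feed back on them (Axin2, Nkd1, Znrf3, Rnf43, Lgr5, Lef1 and Dkk1), 9 of the 16 regions had positive and 7 negative log2 fold changes. None of the 16 passed the threshold. The promoter values of Dkk1, Lgr5 and Lef1 were positive, also without any single library, with 0.03 at Lgr5 without E14.5 replicate 1. Those of Axin2, Znrf3, Nkd1 and Rnf43 were negative, but Rnf43 had 0.03 without P0 replicate 2, while Nkd1 had -0.03 and Znrf3 -0.19 without E14.5 replicate 1. This grouping was chosen with earlier results of these data known.

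Activators and inhibitors were then set apart as sums over each library. The 77 activator regions summed to 1964 ± 68.8 CPM at E14.5 and 2030 ± 283 at P0, and the 24 inhibitor regions to 638 ± 21.6 and 622 ± 80.3 (SD, n = 3 each). Both sums overlapped between the stages, and the P0 libraries spread widely, with 1732 CPM in P0 replicate 2 and 2296 in P0 replicate 3 for the activators. The activator sum includes both regions of the overlapping pairs at Fzd7 and Rspo3. With each pair counted once, by its longer region, the 75 regions summed to 1846 ± 66.1 and 1901 ± 266 CPM, again with overlap of the stages. The median log2 fold change was 0.10 over activator regions and -0.05 over inhibitor regions, and 45 of 77 and 10 of 24 were positive, against 51.1% of all regions. With library totals the medians were 0.16 and 0.01, and that over all regions was 0.07 in place of 0.01. The inhibitors' median thus changed sign with a shift of all regions. Promoter regions made up 44.2% of the activator regions and 70.8% of the inhibitor regions.

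Within promoter regions the medians were -0.02 for activators and -0.05 for inhibitors, and outside promoters 0.27 and 0.07, the last over 7 regions. Over all regions they were -0.10 in promoters and 0.10 outside. Positive values were found at 28 of the 43 activator regions outside promoters (65.1%, against 59.3% of all non-promoter regions). Of the 19 activator regions with separated libraries, 17 lay outside promoters. The 43 non-promoter regions of activators summed to 501, 546 and 540 CPM in the E14.5 libraries and 583, 569 and 609 in the P0 libraries, which did not overlap. The same sum over all non-promoter regions was not made. Of these 43 regions, 39.5% did not overlap between the stages, against 27.8% of all non-promoter regions, and 15 of the 43 (34.9%) were higher at P0, against 15.3%. The activators' own promoters, 25 regions, summed to 1153, 1135 and 1219 CPM at E14.5 and 1260, 968 and 1408 at P0, on both sides of E14.5. With the pairs at Fzd7 and Rspo3 counted once, the 23 regions left had 1039, 1015 and 1097 CPM at E14.5 and 1129, 856 and 1262 at P0.

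**Figure D4:**
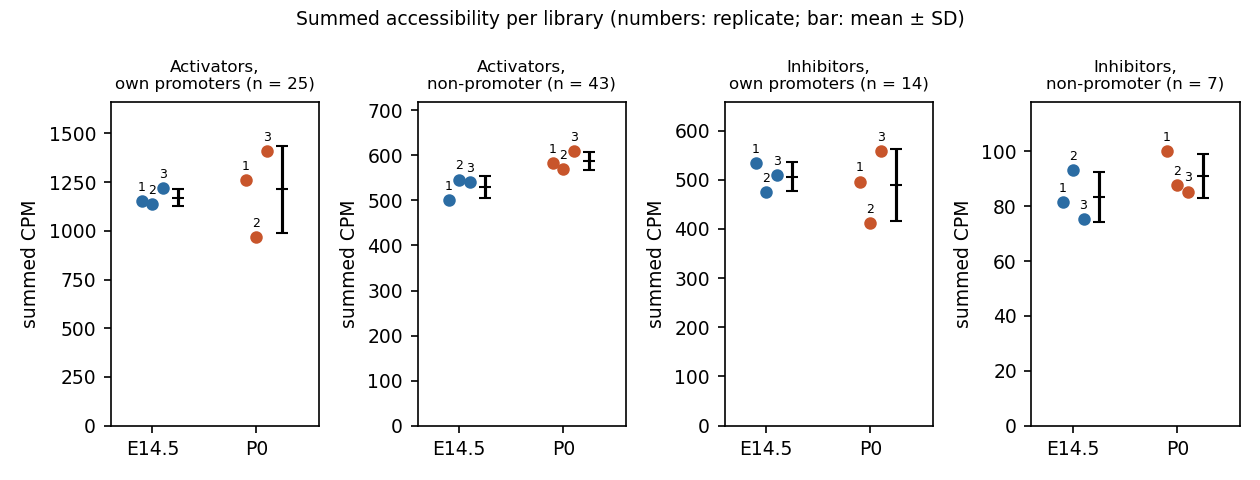
Summed CPM per library (vertical axis, starting at 0) for the genes' own promoters and for non-promoter regions of activators and inhibitors, with replicate numbers and the mean with SD beside the points. Only the 43 non-promoter regions of activators had all P0 libraries (569 to 609 CPM) above all E14.5 libraries (501 to 546 CPM). At promoters, P0 replicate 2 was the lowest and P0 replicate 3 the highest library.

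At most promoters the same P0 libraries had the lowest and the highest value. P0 replicate 2, which had the fewest counts, was the lowest P0 library in 37 of the 51 member promoter regions, and P0 replicate 3, which had the most, was the highest in 41. Over all promoter regions the shares were 60.7% and 62.4%, so this held for most promoter regions of the table too. Outside promoters P0 replicate 2 was the lowest of its stage in 25 of 50 member regions (against 25.7% of all non-promoter regions) and the highest in 16 (against 47.6%). P0 replicate 3 was the lowest in 10 of the 50 (against 47.8%), so outside promoters the order in the set departed from that of the table, a difference that was not tested. Without P0 replicate 2 the log2 fold change was 0.09 at the Fzd3 promoter (-0.23 with all libraries) and 0.03 at that of Rnf43 (-0.28), so both changed sign, and it moved to -0.17 at Axin2 (-0.35) and -0.07 at Lrp6 (-0.36). With P0 replicate 3 left out instead, the values moved the other way, to -0.57 at Fzd3, -0.53 at Rnf43, -0.54 at Axin2 and -0.66 at Lrp6.

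Several weakly accessible intragenic regions varied within the stages more than between them. A region of Ror2 on chromosome 13, from 53135477 to 53137462, had 7.95, 3.77 and 7.12 CPM at E14.5 and 3.64, 12.1 and 3.47 at P0. A region of Tcf7l2, from 55770235 to 55771380, had 7.59, 2.36 and 4.32 CPM against 4.16, 11.0 and 3.63, and one of Nkd1 on chromosome 8, from 88587357 to 88588042, had 11.2, 4.55 and 4.09 against 6.14, 10.4 and 4.42. E14.5 replicate 1 and P0 replicate 2 were the highest of their stage in all 3, and their SE, from 0.41 to 0.47, exceeded the median of 0.23 over the set. These regions were picked after their values were seen.

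Levels were compared between genes only at their own promoters and per kb of region, on the CPM per kb scale. Among the 35 genes with an accessible promoter of their own, the mean over the 6 libraries ran from 6.41 CPM per kb at Rnf43 to 84.3 at Gsk3b. The median of the 35 was 12.7, and that of all 14097 promoter regions was 12.8. Gsk3b came before Fzd4 (49.7), with its lowest library (64.7) just above the highest of Fzd4 (64.5). Next came Fzd1 (37.9), Lgr4 (37.9), Fzd5 (36.4), Wls (30.3) and Fzd8 (29.3), whose ranges overlapped from each to the next. Receptors stood at both ends of the order, since Ror2 (8.01), Fzd3 (7.59) and Fzd2 (7.11) were among the lowest genes. The ligand promoters had 9.41 (Wnt11) and 6.90 (Wnt6) CPM per kb.

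Ctnnb1 (7.56 CPM per kb) and Lef1 (10.4) were also in the lower part of that order, below Axin2 (20.4) and Lgr5 (21.6). Axin2 and Lgr5 did not differ beyond the spread of their libraries. From Sfrp2 (15.9) to Nkd1 (9.80) neighbouring genes overlapped throughout, so neighbours there did not differ beyond their spread.

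**Figure D5:**
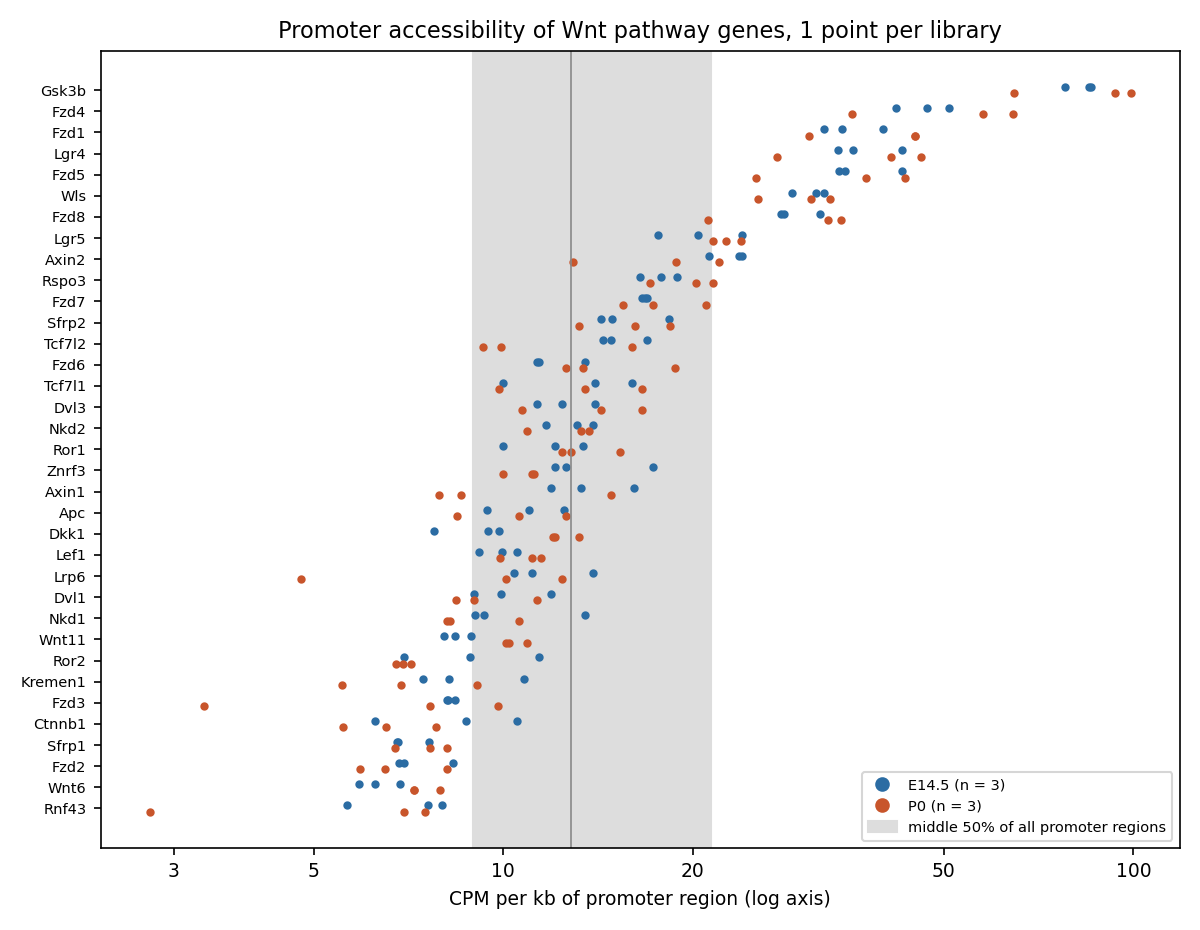
Accessibility of the promoter region of 35 Wnt pathway genes in CPM per kb (horizontal log axis), ordered by the mean over libraries, with 1 point per library in blue for E14.5 and orange for P0. The grey band and line are the middle 50% and the median (12.8) of all promoter regions. Gsk3b is the highest at 84.3 and Rnf43 the lowest at 6.41, and the colours overlap for most genes.

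The set differed from the whole table in where its regions lie, partly because the window is centred on genes. Promoters made up 50.5% of the 101 regions (32.4% of all regions), exons outside promoters 12.9% (5.67%), gene bodies outside exons 31.7% (22.9%) and intergenic sequence 4.95% (39.0%). Of the 51 promoter regions, 39 belonged to a gene of the set and 12 to a neighbour, such as Ppp6r3 near Lrp5 or Ccdc34 near Lgr4. A FANTOM enhancer overlapped 13 of the 101 regions (12.9%, against 9.65% of all) by the table's annotation. A VISTA-tested element overlapped 2 (1.98%, against 0.655% of all), inside Lrp5 and Tcf7l1.

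The table lists motif matches for 56 names, none of which is a TCF/LEF factor. At member promoters, E2F motifs were listed in 22 of 51 (43.1%, against 33.6% of all promoter regions), forkhead motifs in 14 (27.5%, against 15.3%) and Pax motifs in 6 (11.8%, against 3.28%). These counts include both regions of the overlapping pairs at Fzd7 and Rspo3. Outside promoters, forkhead motifs were listed in 6 of 50 (12.0%, against 23.7% of all non-promoter regions) and Sox motifs in 8 (16.0%, against 15.1%). E2F motifs were listed there in 1 (2.0%, against 6.32%) and Pax motifs in 0 (against 4.73%). A Six2 motif was listed in 2 of 50, at Tcf7l1 and Wls (4.00%, against 3.19%). A listed match is not evidence of binding, and the Ror1 region past the threshold had no match listed.

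A second list of 50 other Wnt pathway genes, among them further ligands, antagonists, casein kinases, Groucho co-repressors and planar polarity genes, had 86 regions at 41 genes. The exon region of Wnt6 described above is 1 of the 86 as well, since it also lies near Wnt10a. Of the 86, 3 passed the threshold, 1 higher and 2 lower at P0 (3.49%, against 4.73% of all regions). Both directions occurred within Rspo2, an R-spondin related to Rspo1 and Rspo3. Its region from 43054572 to 43055382 on chromosome 15 had 12.7, 11.1 and 9.46 CPM at E14.5 and 4.69, 2.88 and 4.50 at P0 (log2 fold change -1.44, SE 0.29, adjusted p = 0.0118 in edgeR). The region from 43073915 to 43075216 had 5.58, 6.66 and 6.66 CPM against 12.0, 12.9 and 11.2 (log2 fold change 0.93, SE 0.24, adjusted p = 0.0427 in edgeR). The third lay within Frzb, a secreted decoy of the Sfrp family, with 8.78, 13.8 and 12.3 CPM at E14.5 and 3.64, 5.30 and 6.95 at P0 (log2 fold change -1.12, SE 0.30, adjusted p = 0.0445 in edgeR). All 3 lay in gene bodies outside exons, as did the Ror1 region. Without E14.5 replicate 1 none of the 3 passed in edgeR. The lower Rspo2 region passed without any other single library, whereas the higher one was lost whichever of the 6 libraries was left out (adjusted p from 0.0518 to 0.182 in edgeR). The Frzb region was lost without any 1 library other than P0 replicate 3, and it was also lost with library totals (adjusted p = 0.0597 in edgeR) and limma-voom (adjusted p = 0.0507).

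By the authors' deposited table, 5 of the 101 regions were classed as changed and 96 as stable, while 5.34% of all distinct regions were classed as changed. The authors' deposited table classed the Ror1 region past the threshold, the Fzd6 intragenic region and both Tcf7l1 regions described above as opening, and the Wls region as closing. Their adjusted p-values in the authors' deposited table ran from 0.0619 to 0.0989, so that no region of the set was under 0.05 there. With a threshold of 0.1 in the edgeR fit, 4 regions passed, at Ror1, Wls, Fzd6 and Rspo3, against 8.02% of all regions.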

How the data were processed

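Counts were deposited by the authors for each region in each of 6 libraries, per the file headers, as whole numbers that are not normalised. The build is mm10, per the submitters' processing notes. The aligner, peak caller, counting rule, Tn5 shift and treatment of duplicates are not given in the sources used here, and their effect on the counts was not assessed. The authors' own stage comparison stood in the same table, with a log2 fold change and mean log2 expression, a p-value and adjusted p-value, and the t statistic and B score, all deposited by the authors and made with a model not given in the sources used here. Columns were matched to libraries by title, with 0 left unmatched, and grouped by the source names in the labels.

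Of 45489 rows, 1966 repeated a region and were dropped. All 51 genes and the 50 other pathway genes matched RefSeq by symbol. Gene names for identifiers came from the table's own pairs. Promoter and exon classes are those of the table, and its promoter window is not stated. The whole table was fitted with edgeR 4.0.16 (R 4.3.3): TMM scaling, filterByExpr (which removed 0 regions), the quasi-likelihood F test for stage with no other covariate, and Benjamini-Hochberg adjustment over 43523 regions. The SE is the absolute log2 fold change divided by the square root of F. The fit was tested on simulated counts, where 8 unchanged regions were called. Sums with each overlapping pair of regions counted once were added after seeing the data. Alternatives used limma 3.58.1 and DESeq2 1.42.0. P-values set the stage difference against the spread between libraries, which joins differences between litters with those of handling and sequencing.

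The regions named are those past the threshold, the promoter of each gene, and the largest separated changes, a rule set with the design. Others were named after their values were seen. The members and lists were chosen with earlier results of these data known. Sequences are RefSeq's (GRCm38.p6). No genome was used, so the sequences of regions away from starts are not shown.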

Additional observations from a re-analysis of the deposited data

How the results depend on the processing

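The number of Wnt regions past the threshold (1, at an activator gene) was the same with DESeq2 size factors, total-count scaling and any overlap with the window, and with the gene body alone. Omitting the filter gave an identical fit, since it removed no region. It was 0 with limma-voom and 3 with the DESeq2 Wald test or with a mean of at least 50 counts (2 higher and 1 lower in each, at Ror1, Fzd6 and Wls), all at activators. With a threshold of 0.1 it was 4, all at activators. With a window of 50 kb it was 2, of which 1 was at an inhibitor, an intergenic region 40.8 kb from Axin2 (log2 fold change -1.84, SE 0.37, adjusted p = 0.0118 in edgeR). With Tcf7l1 counted as an inhibitor and Wnt5a and both Ror genes left out, 0 activator regions passed. Leaving out single libraries gave 0 to 3 regions for the set and for activators, and 0 to 4 for the other pathway genes (3 with all libraries). For the set it was 0 without E14.5 replicate 1, E14.5 replicate 3 or P0 replicate 1, 3 without E14.5 replicate 2 (at Ror1, Fzd6 and the second intragenic region of Wls), 2 without P0 replicate 3, and 1 without P0 replicate 2, then at Tcf7l1 in place of Ror1. The other pathway regions were 0 without E14.5 replicate 1 and 1 without E14.5 replicate 3, P0 replicate 1 or P0 replicate 2. Each of these fits had 1 library fewer, and the cause of the changes was not tested. The median log2 fold change ran from 0.01 to 0.17 for activators and from -0.17 to 0.01 for inhibitors over the alternatives (0.10 and -0.05 as reported). Of 494 values of 38 named regions under the alternatives, 40 had the other sign, none of them for a region past the threshold.

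With the replicate number as a block the Ror1 region was again the only call (adjusted p = 0.0387 in edgeR), and 1834 of all regions passed against 2059. The higher Rspo2 region was lost with the block (adjusted p = 0.0643 in edgeR). Libraries with the same number did not deviate together in all pairs (correlations of 0.0666, -0.140 and 0.0767 across regions). Pairs with different numbers ran from -0.241 to 0.192. With 3 libraries a stage, these values cannot decide whether the numbers pair the libraries. The SE ran up to 0.47 in the set, and the part of depth in it was not tested.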
